A study of Mus musculus with 12 samples.

Results

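Chemokine receptors are G protein-coupled receptors with which blood cells sense chemokines, small secreted proteins that direct cell migration. The 7 receptors described here were Ccr1, Ccr2, Ccr3, Ccr7, Ccr9, Cx3cr1 and Cxcr4. Every probe set annotated to 1 of these symbols alone was taken, which gave 13 probe sets of the 22626 tested, for 7 of 12393 genes. The receptors were chosen by name, with earlier results of these data already known.

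In bone marrow, Cxcr4 binds Cxcl12 and holds stem and progenitor cells in their niche. Ccr1, Ccr2 and Cx3cr1 are best known from monocytes and their precursors, Ccr3 from eosinophils and basophils, and Ccr7 and Ccr9 from lymphocytes and dendritic cells that home to lymph nodes, thymus and gut. A ligand bound to such a receptor releases an inhibitory G protein, and RGS proteins shorten that signal.

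The cells were bone marrow cells of (C57Bl/6Ly-Pep3b×C3H/HeJ)F1 mice older than 12 weeks, all pretreated with 5-fluorouracil (150 mg/kg, 4 days ahead of marrow collection), so no group held untreated marrow. They were prestimulated for 48 hours with interleukin-3, interleukin-6 and stem cell factor and transduced over 2 days of coculture with irradiated GP+E86 virus producer cells. After a further 24 hours they were sorted as Sca-1+, Lin- and GFP+, where the lineage markers were CD4, CD8, CD5, B220, Gr-1 and Ter-119. The MSCV vector carried GFP alone in the GFP control, NUP98-HOXD13 in ND13, NUP98-HOXA10 in NA10, and NUP98-HOXD13 with the homeodomain mutation N51S, which removes DNA binding, in ND13(N51S). Transduced cells were sorted in bulk and expressed the insert from the viral promoter, and RNA was amplified in 2 rounds before hybridization to Affymetrix MOE430A arrays, 3 per group. Comparisons asked what each fusion changed against the GFP control and whether the change needed an active homeodomain.

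The arrays were compared as MAS5 signals, which the authors had scaled to a trimmed mean of 500.16 to 500.19. Each array's background was the level below which 95% of its 27 bacterial control probe sets lay, and it ran from 28.5 to 69.8. Of the genes listed for the sort 6 were measured (Ptprc, Cd34, Kit, Cd4, Cd5 and Cd8a), and 4 to 5 lay above background in each array. Ptprc (CD45) and Cd34, which were not selected for, did so in all 12 arrays, and Cd4 in none. Thus the lineage markers Cd5, Cd8a or both gave signal above background in every array, and the arrays do not check the lineage depletion. Sca-1 itself (Ly6a) had no probe set of its own and was not checked. Replicate 2 of ND13(N51S) stood apart, with a 3′ to 5′ signal ratio of 48.9 for Gapdh and 9.09 for actin, against at most 2.71 and 2.38 elsewhere. The experiment record of GFP control replicate 1 named a GFP-negative fraction of an ND13(N51S) culture, at odds with its label, and the label was kept. Values without these arrays are given beside the receptor, ligand and marker results that they moved.

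In RefSeq (assembly GRCm38.p6) 5 of the 7 receptor genes lay on chromosome 9, in the order Cx3cr1, Ccr9, Ccr1, Ccr3 and Ccr2, whereas Cxcr4 lay on chromosome 1 and Ccr7 on chromosome 11. The 250 bases before the start of Ccr1 are shown since Ccr1 alone passed the test. Beside them are those of Ccr3 and Ccr2, which follow Ccr1 in this order of the 7 receptors and did not pass. All were read from RefSeq, assembly GRCm38.p6, 5′ to 3′ along the gene (Ccr1 chr9:123968693-123968942, minus strand, Ccr3 chr9:124021721-124021970, plus strand, Ccr2 chr9:124101933-124102182, plus strand). Capitals mark TTTAT or TTTAC, core letters bound by posterior HOX homeodomains, or their reverse complements.
Ccr1: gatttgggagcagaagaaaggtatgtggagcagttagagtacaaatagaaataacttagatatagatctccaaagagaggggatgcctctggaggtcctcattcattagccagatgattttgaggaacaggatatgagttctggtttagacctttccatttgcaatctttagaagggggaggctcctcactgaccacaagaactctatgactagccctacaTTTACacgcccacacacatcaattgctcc
Ccr3: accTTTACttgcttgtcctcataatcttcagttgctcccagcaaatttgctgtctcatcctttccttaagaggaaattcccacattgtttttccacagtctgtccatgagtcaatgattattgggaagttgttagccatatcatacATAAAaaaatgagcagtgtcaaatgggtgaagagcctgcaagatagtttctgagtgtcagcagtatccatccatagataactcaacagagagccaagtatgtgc
Ccr2: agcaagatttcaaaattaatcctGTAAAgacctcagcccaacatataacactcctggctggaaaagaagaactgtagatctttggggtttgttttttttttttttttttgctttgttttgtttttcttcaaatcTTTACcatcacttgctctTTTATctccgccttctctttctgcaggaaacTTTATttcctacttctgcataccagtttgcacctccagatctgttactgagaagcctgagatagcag
The Ccr1 window held 1 TTTAC, at 29 to 25 bases before the start, and no TTTAT. The Ccr3 window held 1 of each and the Ccr2 window 2 of each. Both strands were searched. TTTAT was found in 37.3% and TTTAC in 28.3% of 32851 RefSeq windows of that length, so both were common letters. TGATNNAT, a composite of PBX and HOX letters, was found in 7.68% of windows and, among the 6 receptors with a window, in Ccr9 alone. Cx3cr1 held 1 TTTAT and Cxcr4 2, which overlapped each other. A match is a description of the letters, not of binding.

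Ccr1, the receptor of Ccl3, Ccl5 and related ligands, was the only receptor that passed the test, and it rose in ND13. Its signal by probe set 1419609_at was 544, 364 and 357 in the GFP control and 2102, 1418 and 1829 in ND13, with replicates 1, 2 and 3 in that order. It was 553, 362 and 507 in NA10 and 897, 444 and 849 in ND13(N51S). All 3 ND13 arrays lay above the other 9 arrays, NA10 overlapped the GFP control, and the 2 higher ND13(N51S) arrays lay above every GFP control and NA10 array.

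The group means were 422 ± 106 in the GFP control, 474 ± 99.3 in NA10, 730 ± 249 in ND13(N51S) and 1783 ± 345 in ND13 (SD, n = 3). In ND13 Ccr1 was 4.25-fold higher compared to the GFP control, a log2 fold change of 2.09 ± 0.30 (SE, limma adjusted p = 0.0185). In that comparison 0.084% of all probe sets passed the same test as higher, 19 of 22626, and 0.00442% as lower. From highest to lowest the groups were ND13, ND13(N51S), NA10 and GFP control, and no neighbours in this order differed past the adjusted threshold without the replicate block.

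**Figure D1:**
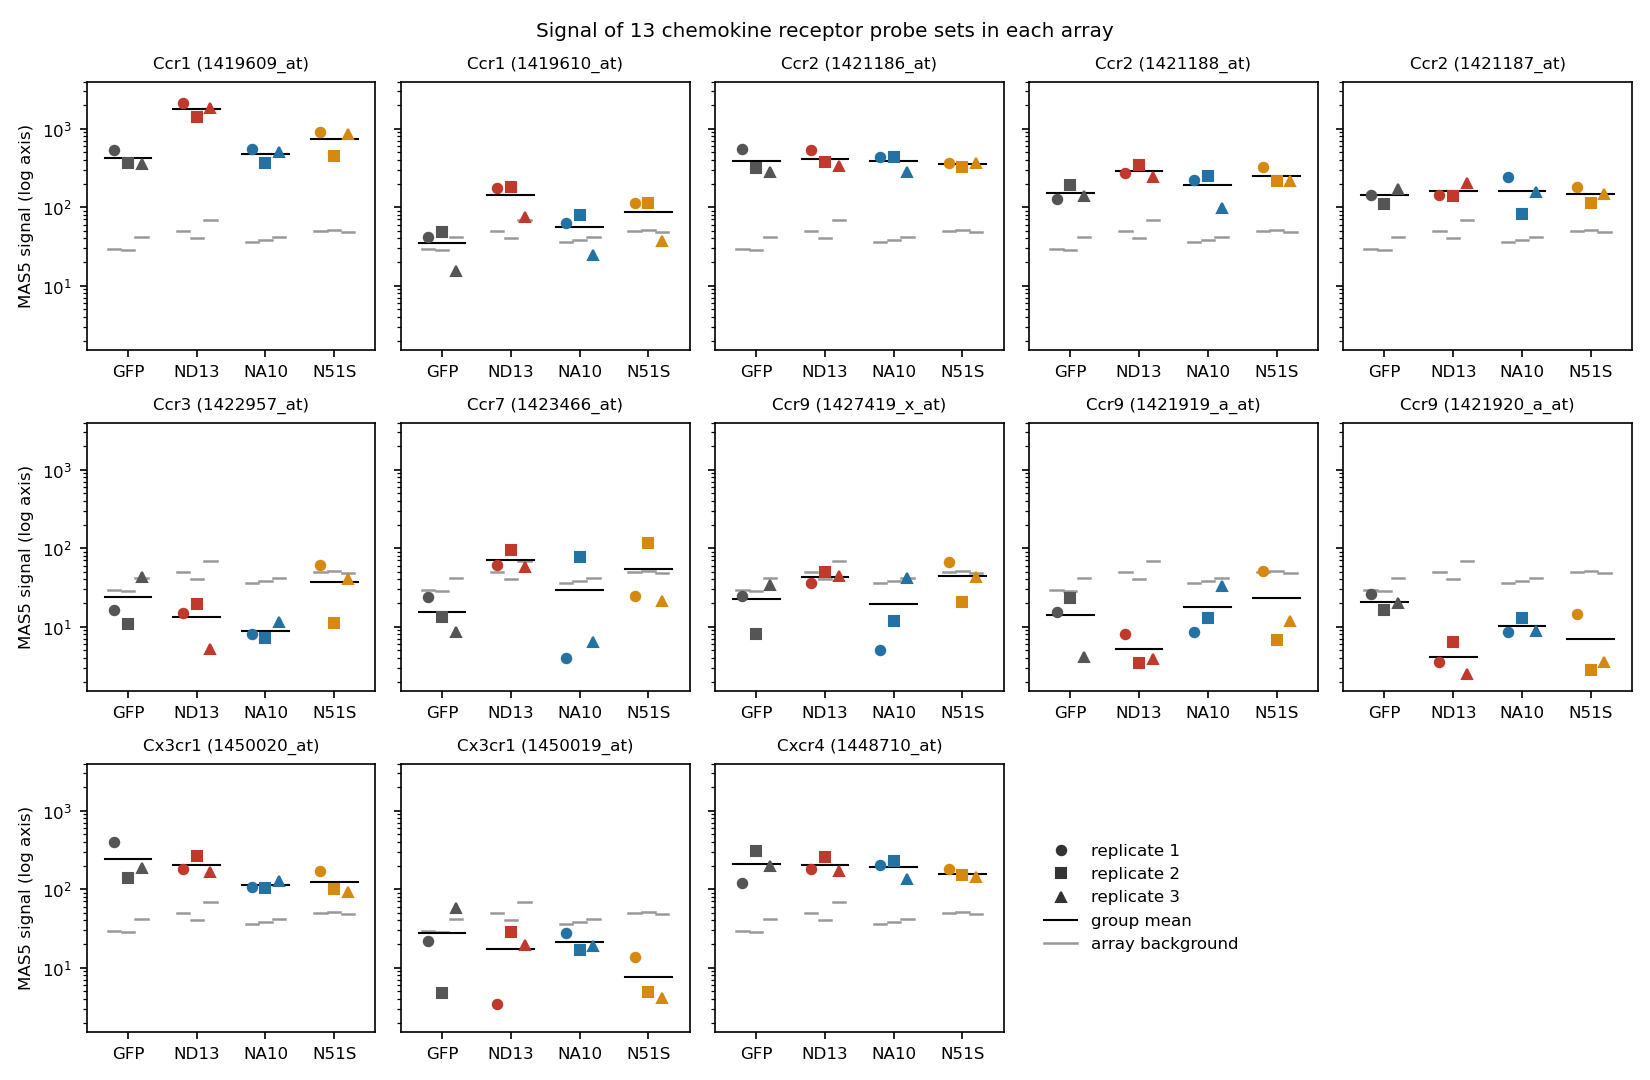
MAS5 signal on a log axis of the 13 probe sets of 7 chemokine receptors in 12 arrays, by group (N51S stands for ND13(N51S)), with replicates 1 to 3 as circle, square and triangle, group means as black lines and the background of each array as grey lines. Ccr1 (1419609_at) lay between 1418 and 2102 in ND13 and between 357 and 897 in all other arrays, while Ccr3, Ccr7 and Ccr9 lay at or below background in most arrays.

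In NA10 the Ccr1 signal did not differ from the GFP control beyond the spread. Its log2 fold change against the GFP control was 0.17 ± 0.30 (SE), with a 95% interval from -0.47 to 0.82, so that its upper end was 1.76-fold. In ND13(N51S) it was 0.75 ± 0.30, or 1.68-fold (limma p of 0.0252, adjusted p = 0.621). Without replicate 2 of ND13(N51S), the array with the high 3′ to 5′ ratios, that value was 1.08, and without GFP control replicate 1 it was 0.95, with adjusted p = 0.387 and 0.696.

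The fusions were also compared with each other. ND13 exceeded NA10 by 1.92 ± 0.30 log2 units (3.77-fold, limma adjusted p = 0.0763), and with the replicate number as a block the adjusted p was 0.00199. ND13 exceeded its own DNA-binding mutant by 1.34 ± 0.30 (2.53-fold, adjusted p = 0.231), and with the replicate block the adjusted p was 0.0401. Without ND13(N51S) replicate 2 the differences were 1.92 from NA10 (adjusted p = 0.0108) and 1.01 from the mutant (adjusted p = 0.344). Either difference thus passed the threshold in the blocked fit and missed it in the fit of all 12 arrays without the block. Among all probe sets 0.0177% were called higher in ND13 than in NA10 and 0.0133% higher than in ND13(N51S), and with the block 0.0309% and 0.0619%. NA10 and ND13(N51S) differed by -0.58 ± 0.30 with an interval from -1.22 to 0.06. For both active fusions against both controls the value was 0.76 ± 0.21 (adjusted p = 0.362, with the block 0.0537). These comparisons share arrays and are not independent of each other.

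The rise of Ccr1 in ND13 held its size when any array was left out, between 1.96 and 2.29 log2 units, but not always its call. The adjusted p was 0.0959 without GFP control replicate 2, 0.0909 without GFP control replicate 3, 0.171 without ND13 replicate 1 and 0.0787 without ND13 replicate 3. Without both arrays in doubt it was 0.00272 at 2.29 log2 units, and with the replicate block 0.000628. With plain eBayes it was 0.104.

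A second probe set of Ccr1, 1419610_at, lay above background in 9 of 12 arrays. Its signal was 42.4, 48.5 and 15.4 in the GFP control, 174, 183 and 75.8 in ND13, 63.1, 78.9 and 24.6 in NA10 and 113, 113 and 36.8 in ND13(N51S). The lowest ND13 array (75.8) lay above all GFP control arrays, and replicate 3 was the lowest in every group. The log2 fold change of ND13 was 2.08 ± 0.65 (SE, limma p of 0.0066, adjusted p = 0.511), nearly that of the first probe set. With the replicate block the adjusted p was 0.0476, a call, which made 2 of 13 receptor probe sets called as higher in that fit, against 0.274% of all probe sets. By 1419610_at ND13 exceeded NA10 by 1.43 ± 0.65 and ND13(N51S) by 0.79 ± 0.65 log2 units (SE). Neither difference passed in either fit (limma adjusted p with the block 0.595 and 0.460), and ND13 overlapped both groups. Over the 12 arrays the log2 signals of both Ccr1 probe sets correlated at r = 0.60.

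Ccr2, the receptor of Ccl2 and Ccl7 that lets monocytes leave the marrow, was measured above background in all 12 arrays by each of 3 probe sets, and these disagreed. By 1421186_at its signal was 559, 312 and 278 in the GFP control, 538, 374 and 332 in ND13, 435, 436 and 282 in NA10 and 365, 322 and 368 in ND13(N51S). All groups overlapped, and the log2 fold changes against the GFP control were 0.15, 0.05 and -0.06 with an SE of 0.30.

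By 1421188_at Ccr2 was 129, 192 and 139 in the GFP control and 273, 345 and 244 in ND13. It was 225, 252 and 97.8 in NA10 and 322, 218 and 213 in ND13(N51S). Every ND13 and every ND13(N51S) array lay above every GFP control array. ND13 was 0.91 ± 0.35 log2 units above the GFP control (SE, limma p of 0.0215, adjusted p = 0.751) and ND13(N51S) 0.71 ± 0.35 (adjusted p = 0.679), so neither passed. The third probe set, 1421187_at, gave 110 to 171 in the GFP control and 82.7 to 243 over the other groups, with log2 fold changes of 0.20, 0.07 and 0.03. Across the 12 arrays the 3 Ccr2 probe sets correlated with each other at r = 0.27, -0.05 and -0.05.

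Cx3cr1, the fractalkine receptor, marks monocytes and their committed precursors. By 1450020_at, above background in all arrays, its signal was 401, 140 and 189 in the GFP control, 179, 266 and 164 in ND13, 106, 102 and 129 in NA10 and 172, 101 and 92.9 in ND13(N51S). All 3 NA10 arrays lay below all GFP control arrays, and ND13 overlapped them. The log2 fold change was -0.98 ± 0.39 for NA10 (SE, limma p of 0.0253, adjusted p = 1.0), -0.90 ± 0.39 for ND13(N51S) (p of 0.0358, adjusted p = 0.637) and -0.15 ± 0.39 for ND13. The highest array was GFP control replicate 1, whose record was at odds with its label. Without it the log2 fold changes were -0.54 for NA10, -0.47 for ND13(N51S) and 0.29 for ND13. The other Cx3cr1 probe set, 1450019_at, exceeded background in 1 of 12 arrays.

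Cxcr4, the receptor of Cxcl12, was well above background in all arrays and did not differ between groups beyond the spread. Its signal was 119, 309 and 198 in the GFP control, 181, 257 and 169 in ND13, 205, 230 and 137 in NA10 and 182, 151 and 142 in ND13(N51S). The 95% interval of the log2 fold change ran from -0.71 to 0.79 in ND13, from -0.81 to 0.69 in NA10 and from -1.05 to 0.45 in ND13(N51S). GFP control replicate 1 was the lowest of all 12 arrays and replicate 2 the highest, so that the GFP control alone spanned every other group. Without GFP control replicate 1 the log2 fold changes were -0.31, -0.41 and -0.65.

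Ccr7, the lymph node homing receptor, was near background. Its signal was 23.8, 13.5 and 8.59 in the GFP control, 60.4, 95.2 and 56.9 in ND13, 3.95, 78.5 and 6.44 in NA10 and 24.9, 117 and 21.1 in ND13(N51S). It exceeded background in 0 of 3 GFP control arrays, 2 of 3 ND13 arrays and 1 of 3 of either other group, in both of these replicate 2. The difference between ND13 and the GFP control did not pass (limma p of 0.043, adjusted p = 0.843), and no fold is given since only 2 of these 6 arrays measured Ccr7.

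Ccr3 and Ccr9 were not well above background in most arrays. Ccr3 exceeded it in 2 of 12 arrays, GFP control replicate 3 at 43.4 and ND13(N51S) replicate 1 at 61.5, and was 5.13 to 19.6 in ND13 and 7.12 to 11.4 in NA10. The 3 probe sets of Ccr9 exceeded it in 3, 1 and 0 of 12 arrays. By 1421920_a_at, the 1 below background throughout, signal was 16.5 to 26.0 in the GFP control and 2.50 to 6.45 in ND13, and no fold is given since both were below background.

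Counts over the 13 receptor probe sets are set beside those over all 22626. At the unadjusted p of limma with 1.5-fold, 4 were higher in ND13 (both Ccr1 probe sets, Ccr2 1421188_at and Ccr7) and 1 lower (Ccr9 1421920_a_at, below background), against 3.43% and 1.5% of all. In NA10 0 were higher and 1 lower (Cx3cr1), against 2.51% and 1.52%. In ND13(N51S) 1 was higher (Ccr1) and 2 lower (Cx3cr1 and Ccr9 1421920_a_at), against 4.37% and 2.48%. After adjustment 0 passed in either NA10 or ND13(N51S) by limma, where 0.0133% and 0% of all were called higher. Every ND13 array lay above every GFP control array for 5 of the 13 probe sets, both of Ccr1, Ccr2 1421188_at, Ccr7 and Ccr9 1427419_x_at, and below for 1, Ccr9 1421920_a_at, against 6.84% and 5.37% of all. In NA10 these counts were 0 and 2 against 5.6% and 5.18%, and in ND13(N51S) 1 and 1 against 8.5% and 3.45%. In ND13 against NA10, 3 of the 13 were higher at the unadjusted p (both of Ccr1 and Ccr7, against 1.98% of all), or 5 with the replicate block (against 2.37%), and against ND13(N51S) 1 was (Ccr1 1419609_at, against 3.2%). The median log2 fold change of the 13 was 0.15, 0.05 and 0.50, against 0.00, -0.01 and 0.07 for all. The median in ND13(N51S), 0.50, was the value of Ccr9 1421919_a_at, which exceeded background in 1 of 12 arrays.

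**Figure D2:**
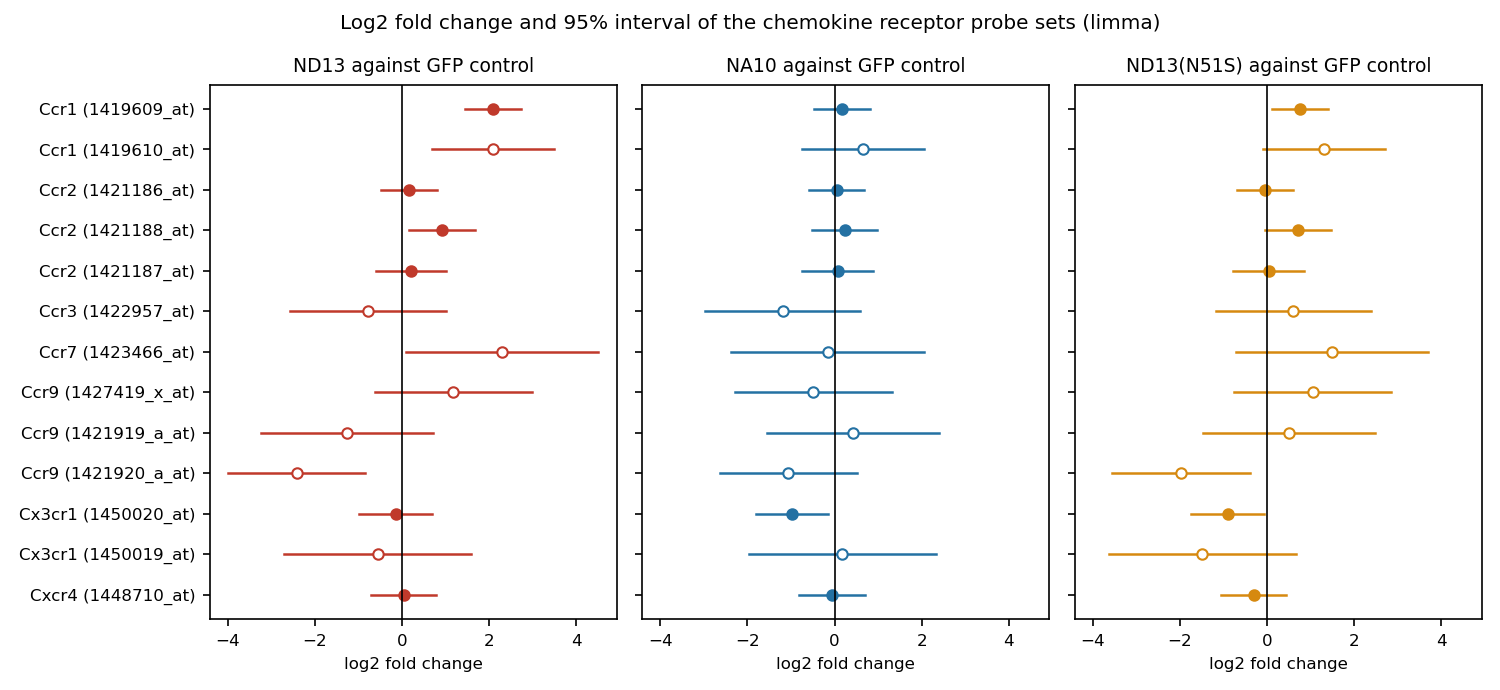
Log2 fold change of each chemokine receptor probe set against the GFP control in ND13, NA10 and ND13(N51S), with the 95% interval from limma (n = 3 arrays a group), filled where the probe set lay above background in all 12 arrays and open otherwise. The intervals of Ccr1 1419609_at lay wholly above 0 in ND13 (1.45 to 2.73) and ND13(N51S) (0.11 to 1.39), and open symbols had the widest intervals.

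Among the other chemokine receptors on the array, typical and atypical, none was called beside Ccr1 in ND13. Of 18 genes listed 16 were measured, with 18 probe sets. In ND13 0 of 18 passed by limma in either direction, adjusted or unadjusted. In NA10 1 was lower at the unadjusted p, Ackr1, the red cell chemokine receptor (-0.71 ± 0.31 log2 units), against 1.52% of all, and this count was 0 without GFP control replicate 2, ND13 replicate 2 or NA10 replicate 1. In ND13(N51S) 3 were higher, Ccr1l1 (0.80 log2 units), Cxcr6 and Cmklr1, against 4.37% of all, and this count was 1 without ND13(N51S) replicate 1 or 3. Cxcr6 exceeded background in ND13(N51S) in 1 of 3 arrays, replicate 2 with the high 3′ to 5′ ratios, and Cmklr1 in 0 of 3, so neither is given a fold. Ccr1l1, the gene next to Ccr1 and akin to it, was above background in all arrays, with means of 105 ± 17.1 in the GFP control, 92.6 ± 31.2 in ND13, 81.9 ± 24.6 in NA10 and 182 ± 19.9 in ND13(N51S) (SD, n = 3).

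Ligands of the 7 receptors were counted next. Of 16 ligand genes 14 were measured, with 19 probe sets, and 0 passed the adjusted test in any comparison with the GFP control. At the unadjusted p 1 was higher in ND13, Ccl3, against 3.43% of all. This count was 3 without GFP control replicate 2 and with the replicate block, and 2 without ND13 replicate 2 or 3 or NA10 replicate 1 or 2. In NA10 1 was higher, again Ccl3, against 2.51% of all, and this count was 0 without GFP control replicate 2 or 3 or NA10 replicate 1 and 2 without ND13 replicate 1. In ND13(N51S) 4 were higher, Ccl3, Ccl7 and both probe sets of Ccl6, against 4.37% of all, and 1 by the methods' t-test. None was lower at the unadjusted p of limma in any of the 3 groups. Ccl3, an inflammatory chemokine that myeloid cells secrete and that binds Ccr1, was 540, 186 and 195 in the GFP control, 2400, 1265 and 646 in ND13, 966, 585 and 455 in NA10 and 668, 811 and 1061 in ND13(N51S).

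Every ND13 and every ND13(N51S) array of Ccl3 exceeded all 3 GFP control arrays, and NA10 overlapped them only through GFP control replicate 1. The log2 fold changes of Ccl3 were 2.21 ± 0.48, 1.24 ± 0.48 and 1.63 ± 0.48 (SE, limma p of 0.000487, 0.0235 and 0.00497 before adjustment) in ND13, NA10 and ND13(N51S). Without GFP control replicate 1 they were 2.72, 1.74 and 2.13. With the replicate block ND13 passed, at a limma adjusted p of 0.0401, against 0.274% of all probe sets called higher in that fit. Ccl9, another Ccr1 ligand, was bright in all arrays (1417936_at), with means of 2985 in the GFP control and 3928, 3808 and 3545 in ND13, NA10 and ND13(N51S), short of 1.5-fold in each. Cxcl12, the Cxcr4 ligand of marrow stroma, had group means of 42.9 to 59.6 by 1417574_at, within the range of the arrays' backgrounds, and no fold is given.

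Partners of chemokine receptor signals were counted in the same way. Of 28 G protein, RGS, GRK, arrestin and effector genes 24 were measured, with 38 probe sets. At the unadjusted p 6 were higher in ND13, among them both probe sets of Rgs2, Rgs1 and Dock2, an activator of Rac in migrating cells, and 0 lower, against 3.43% and 1.5% of all. The higher count was 4 to 7 over arrays left out and 2 by the methods' t-test. In NA10 2 were higher (Gng2 and Dock2) and 1 lower (Gnb1 1425908_at), against 2.51% and 1.52%. The first was 1 without NA10 replicate 1 or ND13(N51S) replicate 1 and 4 without GFP control replicate 2, ND13 replicate 3 or NA10 replicate 3, and the second was 0 without GFP control replicate 2 or 3 or NA10 replicate 1. In ND13(N51S) 4 were higher (Rgs10, Rgs1, Rgs2 and Gnai2, an inhibitory G protein subunit) and 0 lower, against 4.37% and 2.48%. The higher count was 1 without GFP control replicate 1, or 2 without ND13(N51S) replicate 2 or GFP control replicate 3, and without ND13(N51S) replicate 1 or 3 the lower count was 2. After adjustment 0 passed. With the replicate block 3 passed in ND13, Rgs1 and both probe sets of Rgs2, against 0.274% of all probe sets called higher in that fit.

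Rgs1, which curbs chemokine receptor signals, was 355, 482 and 210 in the GFP control, 1803, 1326 and 458 in ND13, 1128, 797 and 362 in NA10 and 707, 1072 and 609 in ND13(N51S). Replicate 3 was the lowest in every group, and ND13 replicate 3 lay below GFP control replicate 2. The log2 fold change in ND13 was 1.64 ± 0.51 (SE, limma adjusted p with the block 0.0419). Rgs2, another GTPase activator, was 628, 658 and 656 in the GFP control and 2594, 2142 and 1079 in ND13 by 1419248_at. It was 1345, 1018 and 586 in NA10 and 913, 1463 and 850 in ND13(N51S). ND13 and ND13(N51S) did not overlap the GFP control, and the log2 fold change in ND13 was 1.49 ± 0.35 (SE, limma adjusted p with the block 0.0456).

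**Figure D3:**
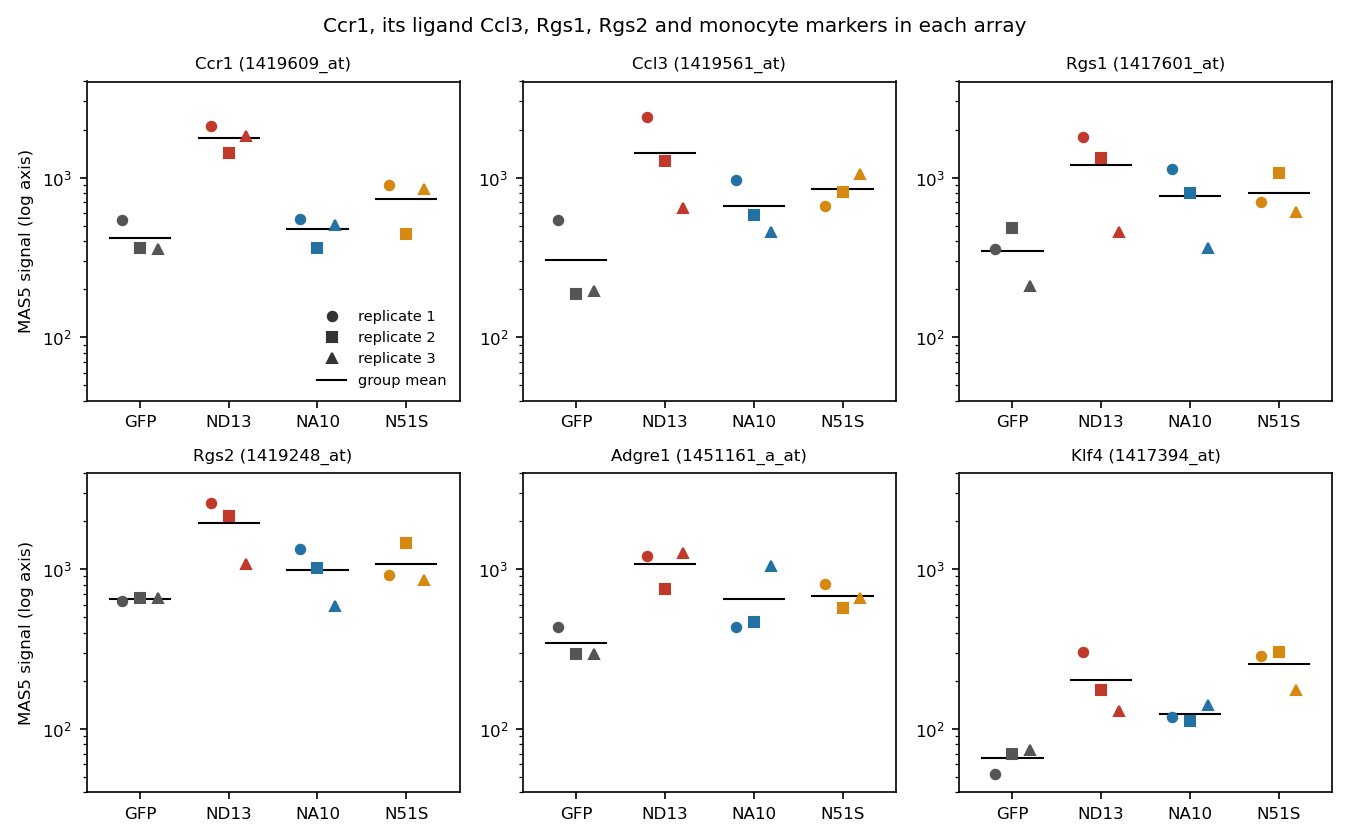
MAS5 signal on a log axis of Ccr1, its ligand Ccl3, Rgs1 and Rgs2, and the monocyte markers Adgre1 and Klf4 in 12 arrays, by group (N51S stands for ND13(N51S)), with replicates as circle, square and triangle and group means as lines. Each gene had its highest array in ND13 (for Klf4 305, against 301 in ND13(N51S)), and of the 6 genes only Ccr1 had all ND13 arrays above every other array.

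Markers of monocytes and macrophages were counted beside Ccr1. Of 14 markers 11 were measured, with 17 probe sets. At the unadjusted p of limma 8 were higher in ND13, 4 in NA10 and 9 in ND13(N51S), against 3.43%, 2.51% and 4.37% of all, and 0 were lower, with medians of 0.98, 0.30 and 1.0 log2 units. After adjustment 0 passed. With the replicate block Adgre1 passed in ND13, against 0.274% of all probe sets called higher in that fit. The ND13 count was 4 with quantile normalization, 5 with median centring or the filter on dim probe sets and 10 with the replicate block. By the methods' t-test the counts were 3, 2 and 3. With both arrays in doubt left out they were 12, 4 and 15, and over leaving out each array in turn they were 3 to 10, 2 to 4 and 3 to 12. Without GFP control replicate 3 or ND13 replicate 1 the ND13 count was 3. It was 5 without NA10 replicate 2 or GFP control replicate 2. The ND13(N51S) count was 3 without ND13(N51S) replicate 1 and 4 without GFP control replicate 3. The NA10 count was 2 without GFP control replicate 2, GFP control replicate 3 or any NA10 array.

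Adgre1, the F4/80 antigen of macrophages, was 437, 295 and 295 in the GFP control, 1204, 747 and 1265 in ND13, 432, 469 and 1040 in NA10 and 812, 573 and 662 in ND13(N51S). Every ND13 and every ND13(N51S) array exceeded all GFP control arrays, and NA10 overlapped them. ND13 was above the GFP control by 1.63 ± 0.33 log2 units (SE, limma adjusted p with the block 0.0427). Klf4, a transcription factor of monocyte differentiation, was 52.1, 69.5 and 74.2 in the GFP control and was higher by 1.56 in ND13, 0.93 in NA10 and 1.94 in ND13(N51S). Csf1r, the receptor of macrophage colony-stimulating factor (1419872_at), was higher by 0.98, 0.29 and 1.10, of which the first and last passed at the unadjusted p. Cd68, a lysosomal protein of macrophages, was higher by 1.21 in ND13 and Mpeg1, a macrophage perforin, by 1.22 in ND13(N51S).

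The summed signal of the 11 markers was 3647 to 7219 in the GFP control, 7705 to 10106 in ND13, 5460 to 6204 in NA10 and 6738 to 12945 in ND13(N51S), with 9 to 11 markers above background in every array. The highest sum belonged to ND13(N51S) replicate 1, in which Ccr1 was 897, below the 1418 to 2102 of ND13. In GFP control replicate 1, whose record was at odds with its label, the sum was 7219 and Ccr1 544. In GFP control replicates 2 and 3 the sums were 3647 and 3753, below every array of the other groups, with Ccr1 at 364 and 357. In ND13 replicate 2 the sum was 7705 and Ccr1 1418. In bulk RNA, more cells of a type and more RNA per cell cannot be told apart, and the part of these markers in the Ccr1 result was not tested.

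**Figure D4:**
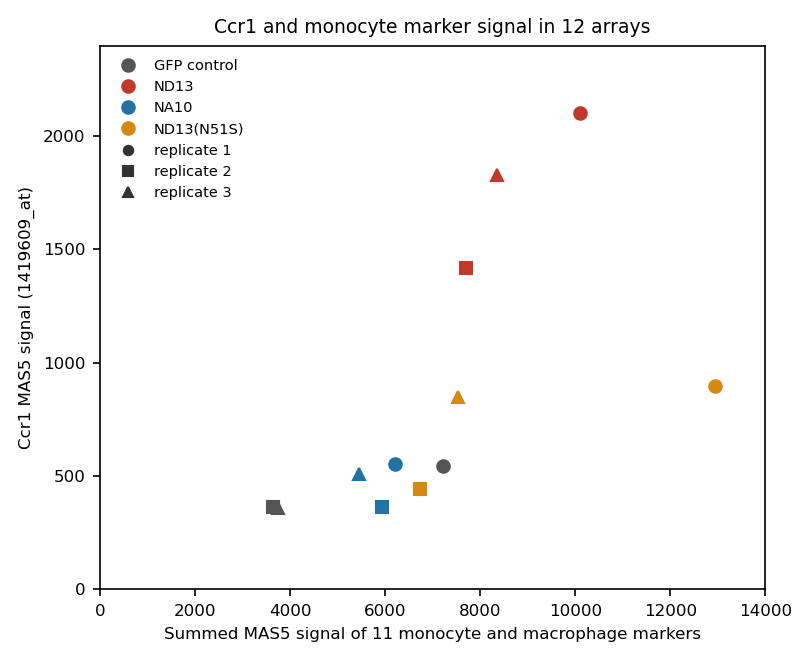
Ccr1 MAS5 signal (1419609_at) against the summed MAS5 signal of 11 monocyte and macrophage markers, 1 point for each of 12 arrays, coloured by group with replicates as circle, square and triangle. The 3 ND13 arrays had the highest Ccr1 (1418 to 2102), while the highest marker sum (12945) was in ND13(N51S) replicate 1, with Ccr1 at 897.

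Markers of other cell types were counted at the unadjusted p, where 3.43%, 2.51% and 4.37% of all probe sets were higher in ND13, NA10 and ND13(N51S). In the same order 1.5%, 1.52% and 2.48% were lower. Of 13 neutrophil probe sets 0 passed in ND13 or ND13(N51S) and 1 (Camp) was higher in NA10, and without GFP control replicate 2 these counts were 3, 3 and 4. Of 15 mast cell, basophil and eosinophil probe sets 1 (Cma1) was higher in ND13, 1 was higher and 1 lower in NA10 (Cpa3 and Siglecf), and 4 were higher in ND13(N51S), Cpa3, Cma1, Fcer1a and Ms4a2. Over arrays left out the higher counts were 0 to 2, 0 to 4 and 4 to 5. Of 21 lymphoid and dendritic probe sets 1 was higher (Flt3) and 2 lower (Cd3g and Nkg7) in ND13. Nkg7, of cytotoxic lymphocytes, fell by 1.37 log2 units in the fit with the replicate block (limma adjusted p = 0.0184). In that fit 0.0221% of all probe sets were called lower in ND13 than in the GFP control. At the unadjusted p without the block Flt3 was higher in NA10 and Il7r in ND13(N51S). Flt3, a receptor of early progenitors and dendritic cells, was 1.34 log2 units higher in ND13 and 1.31 in NA10. Of 20 fibroblast and producer cell probe sets 0 passed in ND13, Postn was higher in NA10, and Timp3, Col1a1 and Fn1 were higher in ND13(N51S). That count of 3 was 0 without GFP control replicate 1 or ND13(N51S) replicate 2 and 1 without NA10 replicate 1. Leaving out GFP control replicate 1 also made 3 lower in ND13. Of 9 probe sets for Ptprc, Cd34, Kit, Cd4, Cd5 and Cd8a 0 passed in any of the 3 groups.

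The genes whose log2 signal followed Ccr1 most closely over the 12 arrays, among 7492 genes above background in all of them, were Dlk1 (r = 0.91), Meg3 (r = 0.90) and Cd300lf (r = 0.90). With group means removed, r was 0.30 for Dlk1, 0.10 for Meg3 and 0.84 for Cd300lf, a myeloid inhibitory receptor. The likeness of Dlk1 and Meg3 to Ccr1 thus lay between groups, while that of Cd300lf held within them as well. For Ccr2 (1421186_at) the closest were Zfp91, Dazap1 and Dgkz (r = 0.93, 0.90 and 0.90). For Cx3cr1 the closest was Ifi44l, an interferon-induced gene (r = 0.90, and 0.92 with group means removed), followed by Gpr180 and Nadk (r = 0.83 and 0.80). For Cxcr4 they were Pet100, Tia1 and Hmces (r = 0.84, 0.83 and 0.81). For Ccr7, which was near background, Lst1 and Irf8, both expressed in myeloid cells, and Rab26os were closest (r = 0.87, 0.81 and 0.80). With group means removed the closest to Ccr1 were Rbms2, Taf10 and Chrac1 (r = 0.97, 0.95 and 0.95). They were Zfp91, Eepd1 and Dgkz for Ccr2 (r = 0.96, 0.93 and 0.92) and Ifi44l, Gatb and Fcgr1 for Cx3cr1 (r = 0.92, 0.86 and 0.86). They were Rhoc, Kif3a and Tubb4a for Cxcr4 (r = 0.93, 0.92 and 0.90) and Phf8, Dclre1a and Lcorl for Ccr7 (r = 0.92, 0.89 and 0.87). All points are arrays of 4 groups and share the array scaling, and these are descriptions of 12 arrays.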

How the data were processed

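RNA of the 12 sorted samples was measured on MOE430A arrays, 3 per group. The authors deposited MAS5 signal intensities on a linear scale for 22690 probe sets, globally scaled. The GC-RMA values of the study's methods were not used here. Values under 0.01 would have been raised to it before taking log2, but there were 0. The 64 control probe sets did not enter any test. Probe sets were named by the platform annotation, 20380 with 1 gene and 691 with several, which name no gene here, and 20351 were matched in RefSeq.

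Groups were fitted together with limma 3.58.1 in R 4.3.3 (lmFit, eBayes with trend and robust, 13.4 degrees of freedom on average), with p-values adjusted after Benjamini and Hochberg over the 22626 probe sets in each of 7 comparisons. A call needed an adjusted p under 0.05 and 1.5-fold, and "unadjusted" counts used the raw p under 0.05 together with 1.5-fold. Means and SD are on the signal scale. Of several probe sets of a gene, that with the highest mean stands for it. Named were all 7 receptors, at most 4 list genes per comparison with the smallest p, and the 3 genes most like each receptor. Ccl9, Cxcl12 and the group means of Ccr1l1 were added after their values were seen. The receptors, lists and tests were chosen with earlier results of these data known. With 3 arrays against 3, an exact permutation test could not go below p = 0.1, and so few arrays limit the precision. The methods named biological triplicates. The main test was checked on simulated data in which every value was drawn independently. The correlation between same-numbered arrays was thus not part of that check.

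The main fit had no block, and in the fit with the replicate block the replicate numbers were treated as pairing the arrays. This pairing was taken up from correlations of deviations from group means. Same-numbered arrays correlated at 0.106 to 0.596 over probe sets above the median mean (0.031 to 0.156 over all), different numbers at -0.422 to 0.107. Both fits had been seen by then. Tried besides were a filter on dim probe sets, a pseudocount of 32, quantile normalization, median centring, plain eBayes, 2-group fits, the methods' t-test, the replicate block, each array left out, and both arrays in doubt left out. What is called the methods' t-test was run here as a Welch test on log2 MAS5 signals. The study's methods named a Student's t-test on GC-RMA values, and its results a Welch form. Running the lists under these was added after seeing the data. Plots used Python 3.11.15 and matplotlib 3.10.9.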

Additional observations from a re-analysis of the deposited data

Results flagged for a closer look

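The effect of ND13 on Ccr1 (1419609_at) was larger than that of NA10, by 1.92 log2 units, and larger than that of its homeodomain mutant ND13(N51S), by 1.34 log2 units. Both differences passed the adjusted test in the limma fit with the replicate number as a block, at adjusted p = 0.00199 and 0.0401, and not in the fit without it, at 0.0763 and 0.231. By this probe set all 3 ND13 arrays exceeded all arrays of either other group. By the second Ccr1 probe set, 1419610_at, the differences were 1.43 and 0.79 log2 units. They passed in neither fit, and ND13 overlapped both groups.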

How the results depend on the processing

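The 43 log2 fold changes tracked for named genes kept direction and side of the threshold in 847 of 895 recomputations. A fold change that passed neither in the main fit nor in the recomputation counted as kept if its direction held. Of the rest, 27 turned direction, 15 came to pass and 6 no longer passed. The count of receptor probe sets called higher in ND13 than in the GFP control, 1, was 0 with plain eBayes and with the methods' t-test after adjustment, 2 with the replicate block, and 0 to 1 over leaving out each array. Against NA10 it was 0, but 1 with a pseudocount, quantile normalization, median centring, 2-group fits, the replicate block or both arrays in doubt left out, and 0 to 1 over leaving out each array, and against ND13(N51S) 0, but 1 with the replicate block. At the unadjusted p, the 4 higher in ND13 became 2 with the filter on dim probe sets (2 to 4 over arrays left out), and the 1 lower became 0 with the filter or the pseudocount. In NA10 the 1 lower became 0 with both arrays in doubt left out, and leaving out single arrays gave 0 to 1 in either direction. In ND13(N51S) the 1 higher became 0 in 2-group fits and by the t-test and 3 with the replicate block (0 to 2 over arrays left out), and the 2 lower became 1 with the filter, the pseudocount or 2-group fits and 0 by the t-test or with both arrays in doubt left out (0 to 3 over arrays left out). The t-test called 0 of 22626 probe sets after adjustment in any comparison, so no gene could pass it. The replicate block changed no other receptor call at the adjusted p. The filter and pseudocount act on dim probe sets by construction, and the other causes were not tested.

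Small fold changes turned direction. For Ccr2 1421186_at these were -0.0011 in NA10 with quantile normalization and 0.31 in ND13(N51S) with both arrays in doubt left out. For Ccr2 1421187_at they were -0.082 in ND13(N51S) with quantile normalization and -0.076 with median centring. For Cx3cr1 it was 0.29 in ND13 with both arrays in doubt left out. For Cxcr4 they were -0.037 in ND13 with quantile normalization, -0.036 with median centring and -0.31 with both arrays in doubt left out. Leaving out each array gave ranges of -0.049 to 0.46 (ND13), -0.15 to 0.35 (NA10) and -0.25 to 0.25 (ND13(N51S)) for Ccr2 1421186_at, -0.29 to 0.49 (NA10) and -0.14 to 0.21 (ND13(N51S)) for 1421187_at, and -0.027 to 0.66 (NA10) for 1421188_at. They were -0.47 to 0.29 (ND13) for Cx3cr1, and -0.31 to 0.37 (ND13), -0.41 to 0.28 (NA10) and -0.65 to 0.034 (ND13(N51S)) for Cxcr4. Ccr3, Ccr7 and Ccr9 were limited by signals near background.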
